A study of Homo sapiens with 6 samples.

Results

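The clustered histone genes encode the bulk of the histone proteins around which DNA is wrapped. They were taken as every listed gene whose symbol begins with HIST1H, HIST2H, HIST3H or HIST4H, the names of 4 groups of histone genes, and were kept where the mean signal was at least 1 in either group of libraries. Of 61 such genes listed, 59 were kept, out of 17356 genes listed in all and 16548 that met the same minimum. They comprised 5 H1, 16 H2A, 15 H2B, 11 H3 and 12 H4 genes. The measurements came from RNA-seq of C4-2B-ENZR, a human prostate cancer cell line resistant to enzalutamide, a drug that blocks the androgen receptor. One group of 3 libraries was from cells given a negative control siRNA (NC), and the other 3 libraries were labelled KIF15 knockdown (siKIF15), from cells given an siRNA against the mitotic kinesin KIF15. The series title asks about KIF15 in enzalutamide-resistant, castration-resistant prostate cancer. The labels give no dose, time after transfection or siRNA sequence, name no enzalutamide in the serum-containing medium all cells were kept in, and do not say whether the replicates were separate cultures, so p-values here reflect how far these libraries scatter, and that scatter may be purely technical.

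Histones H2A, H2B, H3 and H4 form the core of the nucleosome, and the linker histone H1 binds the DNA that enters and leaves it. In dividing cells most of their mRNA comes from these clustered genes during S phase, when new chromatin needs histones. Most of these mRNAs are not polyadenylated: they end just after a conserved stem-loop that is bound by the stem-loop binding protein, SLBP. Some of the genes also make a longer, polyadenylated mRNA that reads through the stem-loop and is found outside S phase. Which of these forms a library captures depends on how it was made. The labels name total RNA and a standard Illumina preparation. Whether polyadenylated RNA was selected is not given in the sources used here, so the values cannot be divided between the forms.

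The stem-loop is shown because it marks the end of the non-polyadenylated form. Annotated transcripts (GENCODE release 29) of 21 of the 59 members carried one of 3 versions of the 16-base element, written as DNA with the 4-base loop in capitals.
H2A, H2B and H3 form: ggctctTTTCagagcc
H2A variant form: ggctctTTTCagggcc
H4 form: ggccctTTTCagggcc
The first version was found in 6 H2A, 7 H2B and 2 H3 genes. The second stood in HIST1H2AG only, and the third in 5 H4 genes. Another 26 members had only coding bases in every annotated transcript, so no stem-loop could appear there, and 12 had untranslated bases without a match. The search fixed every base except a C or T before the loop and an A or G after it. Other versions of the element would not have been found. In 14 of the 21, a transcript ran on for more than 100 bases after the element. For HIST1H2AC that stretch was 1128 bases long.

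Promoters of 4 members are shown because the results below turn on them: HIST1H2BD has the smallest p-value, HIST1H2BM and HIST1H4E the largest rises among H2B and H4 genes, and HIST1H4I is the only member called lower. Each sequence is RefSeq's, on GRCh38.p14, from 250 bases before to 50 bases after the annotated start, all on the plus strand, at chr6:26157871-26158170, chr6:27814772-27815071, chr6:26204360-26204659 and chr6:27139032-27139331 respectively. Capitals mark matches, on either strand, to the CCAAT box (CCAAT), the TATA box (TATAAA) and the octamer (ATTTGCAT).
HIST1H2BD: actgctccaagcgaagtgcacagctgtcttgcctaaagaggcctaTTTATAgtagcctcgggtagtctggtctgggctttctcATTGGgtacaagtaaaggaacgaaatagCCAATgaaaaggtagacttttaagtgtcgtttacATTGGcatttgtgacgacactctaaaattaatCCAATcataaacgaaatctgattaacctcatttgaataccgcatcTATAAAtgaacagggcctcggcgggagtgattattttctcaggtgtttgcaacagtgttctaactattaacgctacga
HIST1H2BM: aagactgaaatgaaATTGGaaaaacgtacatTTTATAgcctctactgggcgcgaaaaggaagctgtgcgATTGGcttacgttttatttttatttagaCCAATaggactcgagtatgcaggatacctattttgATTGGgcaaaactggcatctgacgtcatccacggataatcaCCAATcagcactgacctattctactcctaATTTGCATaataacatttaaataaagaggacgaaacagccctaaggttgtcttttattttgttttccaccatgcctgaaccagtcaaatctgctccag
HIST1H4E: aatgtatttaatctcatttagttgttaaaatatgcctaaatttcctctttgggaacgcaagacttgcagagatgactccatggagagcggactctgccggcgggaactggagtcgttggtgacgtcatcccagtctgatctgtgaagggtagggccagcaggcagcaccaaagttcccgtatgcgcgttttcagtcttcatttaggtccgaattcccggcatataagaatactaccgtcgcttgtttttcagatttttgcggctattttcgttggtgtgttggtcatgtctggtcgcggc
HIST1H4I: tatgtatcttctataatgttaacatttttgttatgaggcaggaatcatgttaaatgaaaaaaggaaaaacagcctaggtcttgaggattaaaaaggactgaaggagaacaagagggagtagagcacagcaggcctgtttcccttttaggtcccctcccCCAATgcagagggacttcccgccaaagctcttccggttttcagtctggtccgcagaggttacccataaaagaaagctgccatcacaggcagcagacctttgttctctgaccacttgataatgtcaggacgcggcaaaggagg
The HIST1H2BD window held 4 matches to CCAAT and HIST1H2BM 5, and the latter also held 1 octamer, whose first base is at -48 from the start. None of the motifs had a match in the HIST1H4E window, and HIST1H4I had 1 CCAAT.

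Promoter sequences were found for 54 of the 59 members. CCAAT, the core of the CCAAT box, stood in 83.3% of them, against 35.7% of the 27305 promoters in the table. All 5 H1, 15 H2A, 15 H2B and 9 H3 promoters held it, and 1 of 10 H4 promoters did, that of HIST1H4I. TATAAA, the core of the TATA box, was in 68.5% of member promoters and in 12.0% of all. The octamer ATTTGCAT, which POU2F1 is known to bind in H2B promoters, was in 40.7% against 1.8%. It stood in 11 of 15 H2B and 10 of 15 H2A promoters, in 1 of 9 H3 promoters and in no H1 or H4 promoter. That H3 promoter, listed for HIST1H3D, is the same window as that of the H2A gene HIST1H2AD. Its CCAAT and octamer matches are therefore counted under both types. Windows of neighbouring H2A and H2B genes on opposite strands can overlap too, and then the same matches count under H2A and under H2B. For example, the octamer at -130 from the HIST1H2AC start and that at -123 from the HIST1H2BC start are the same bases. Among the 17 members called higher below, 14 promoters held CCAAT, 14 TATAAA and 9 the octamer, and among the 36 with a promoter that were not called, 30, 23 and 13 did. These matches describe letters in the windows, not sites in use.

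Before the histone genes, the target and the libraries were checked. For KIF15 itself the NC values of 366.4, 403.6 and 319.0 overlapped the 294.8, 333.1 and 363.0 measured under the KIF15 knockdown label. The difference on the log2 scale was -0.13 ± 0.14 (SE), with an adjusted p of 0.57 by limma, so the target did not bear out the label. Values in the files are a normalised signal and not read counts, and sequencing depth is unknown. The libraries' summed values lay between 49460840 and 53157388. KLK3, which encodes prostate-specific antigen, was between 62252.7 and 72705.8 in all 6 libraries, 4 of 9 luminal prostate markers were called higher and 1 lower. Basal markers were near 0: the 4 together summed to between 2.15 and 20.4 in NC and between 36.3 and 62.5 in siKIF15, KRT5 and KRT15 were listed at 0 throughout NC, and KRT14 was called higher. No fibroblast, leukocyte or endothelial marker was called. The part of the basal markers in the results below was not tested.

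Clustered histone genes were higher in the libraries labelled KIF15 knockdown more often than lower. In limma's test on log2(signal + 1), with Benjamini-Hochberg adjustment over all 16548 genes and a threshold of 0.05, 17 of the 59 members were called higher, which is 28.8%, against 9.66% of all genes. One, HIST1H4I, was called lower, which is 1.69% against 8.33%, and 41 were not called. The log2 change was positive for 46 and negative for 13 members. Its median over the members was 0.32, against -0.004 over all genes tested, and it ranged from -1.16 for HIST1H4K to 2.81 for HIST1H2BM. In 23 members all siKIF15 values lay above all NC values, and in 5 all lay below, where 18.3% and 16.5% of all genes did. HIST1H3I, HIST2H3A and HIST1H2BB met the minimum of 1 in siKIF15 alone, so the minimum itself favoured their positive changes. They are counted among the 46, and HIST1H3I also among the 23. Fewer cells making a transcript and less of it per cell cannot be told apart in these bulk libraries.

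**Figure D1:**
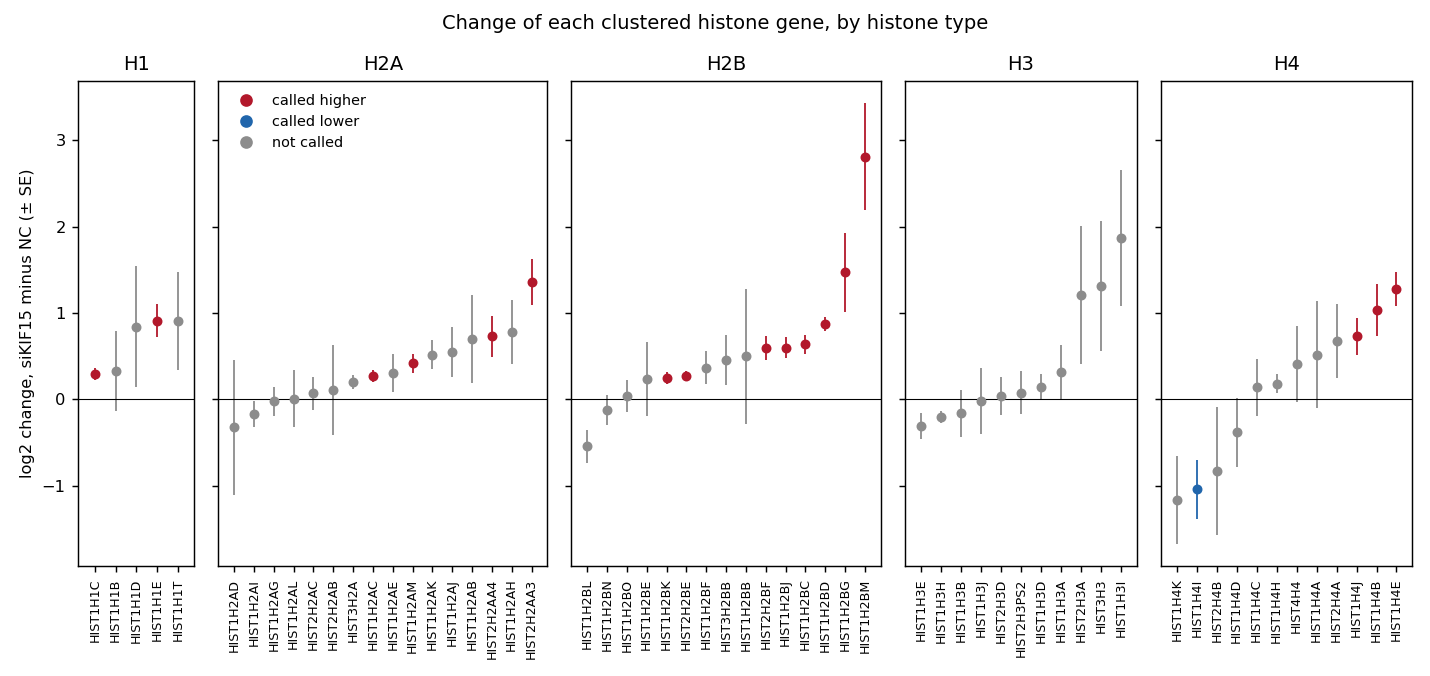
Log2 change of each of the 59 members, siKIF15 minus NC on the log2(signal + 1) scale, in 5 panels by histone type. Points are limma estimates and bars their standard errors (3 libraries a group); red points were called higher, the blue point lower and grey points were not called, and no H3 gene is red or blue.

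The counts leaned on single libraries. Without siKIF15 replicate 1, 4 members were called higher: HIST1H2BC, HIST1H2BD, HIST1H2BJ and HIST1H4E. That is 6.78% of the members, against 4.59% of all genes in the same fit. Without NC replicate 2 the number was 9 (15.3%, against 5.46% of all genes), and without NC replicate 3 it was 8 (13.6%, against 6.3%). Those 4 genes were called higher under each of the 18 alternatives tried, and no other member was. HIST1H4I lost its call without NC replicate 1, NC replicate 2, siKIF15 replicate 1 or siKIF15 replicate 2 (adjusted p by limma of 0.13, 0.18, 0.12 and 0.15).

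The libraries also differed in how a gene's change tracked its base composition. Across 13225 genes, the change of siKIF15 replicates 1 and 2 from the NC mean had rank correlations of 0.429 and 0.407 with transcript GC content and of -0.283 and -0.462 with transcript length. In siKIF15 replicate 3 they were -0.0846 and -0.0719, and in the NC libraries GC content gave 0.146, -0.25 and 0.154. Members are short and GC-rich, with a median coding GC content of 61.2% against 53.2% for all genes and a median coding length of 390 against 1407 bases. After each library was corrected for transcript GC content and length, 11 members (18.6%) were called higher, all among the 17, and 5 (8.47%) lower, against 13.4% and 13.3% of all genes. Their median log2 change was then 0.07. With coding GC content and coding length in the correction, 8 (13.6%) were called higher, again all among the 17, and 5 (8.47%) lower, against 12.5% and 12.3% of all genes, with a median of 0.12.

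**Figure D2:**
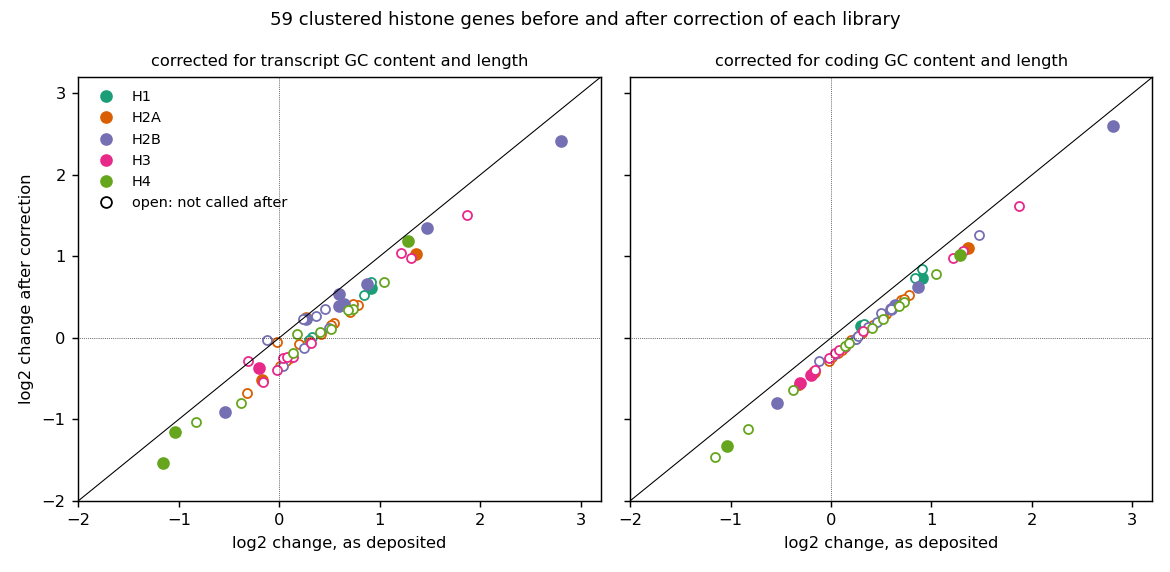
Log2 change of the 59 members as deposited (x axis) and after each library was corrected for GC content and length (y axis), with transcript values on the left and coding values on the right; colours mark the histone type, filled points were called after correction and the line marks equal values. Most points lie below the line, and the filled points at the lower left include HIST1H4I and HIST1H3H.

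H2B genes carried 8 of the 17 rises, among 15 members. H2B pairs with H2A in the nucleosome core. HIST1H2BD had values of 1366.9, 1478.7 and 1450.7 in NC and 2535, 2754.7 and 2574 in siKIF15. Every siKIF15 library was above every NC library, and the rise was 1.83-fold (log2 change 0.87 ± 0.08 SE, limma adjusted p of 1.1e-06). HIST1H2BC measured 466.6, 508.8 and 534.6 in NC and 774, 728 and 858.2 in siKIF15, again without overlap, and rose 1.56-fold (0.64 ± 0.11, limma adjusted p of 8.1e-04). For HIST1H2BJ the NC values were 335.9, 397.6 and 370.5 and the siKIF15 values 560.2, 566 and 540.6. The siKIF15 libraries were close together and all higher, by 1.51-fold (0.6 ± 0.12, limma adjusted p of 0.0025). These 3 genes were also called higher after both corrections.

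HIST2H2BF, in the HIST2 group on chromosome 1, rose 1.52-fold, from 242.9, 205 and 237.9 in NC to 378, 312.4 and 352.8 in siKIF15 (limma adjusted p of 0.0086). Its groups did not overlap, but the adjusted p was 0.06 without NC replicate 2, 0.077 without siKIF15 replicate 1 and 0.074 after the coding correction. Of the 8 H2B genes called, those with the most signal had the smallest changes. HIST2H2BE went from 10535.9, 10428.9 and 10216.1 to 12811.2, 12449.9 and 12467.7, a rise of 1.21-fold (limma adjusted p of 0.0066). HIST1H2BK went from 11297.3, 9913.4 and 10500.4 to 12842.6, 12868.6 and 12008.7, a rise of 1.19-fold (limma adjusted p of 0.021). Both pairs of groups were apart. HIST2H2BE lost its call without NC replicate 3 (0.058) or siKIF15 replicate 1 (0.0539), and its log2 change of 0.27 became 0.02 after the coding correction (limma adjusted p of 0.87). HIST1H2BK lost its call without NC replicate 2 (0.13), NC replicate 3 (0.099) or siKIF15 replicate 1 (0.12). Its log2 change was -0.13 and -0.01 after the transcript and coding corrections.

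The 2 largest H2B changes came from genes near the lower limit of the measurement. HIST1H2BM had 3.5, 2.5 and 0 in NC and 17, 12.6 and 21.6 in siKIF15 (log2 change 2.81 ± 0.62, limma adjusted p of 0.0051). All 3 siKIF15 libraries were higher, and without siKIF15 replicate 1 the adjusted p was 0.058. HIST1H2BG had 5.9, 6.4 and 6.6 in NC and 23.4, 10.6 and 28.8 in siKIF15, with siKIF15 replicate 2 nearest to NC (1.47 ± 0.46, limma adjusted p of 0.036). It lost its call when any library except siKIF15 replicate 2 was left out, with adjusted p between 0.08 and 0.16, and after the coding correction (0.065). Of the 7 H2B genes that were not called, HIST1H2BL was the one with lower values in every siKIF15 library: 154.5, 180.6 and 139.1 in NC and 108.3, 97.2 and 118.6 in siKIF15 (limma adjusted p of 0.06). It was called lower after both corrections, with log2 changes of -0.91 and -0.8. HIST1H2BN, HIST1H2BO and HIST1H2BE overlapped between the groups.

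**Figure D3:**
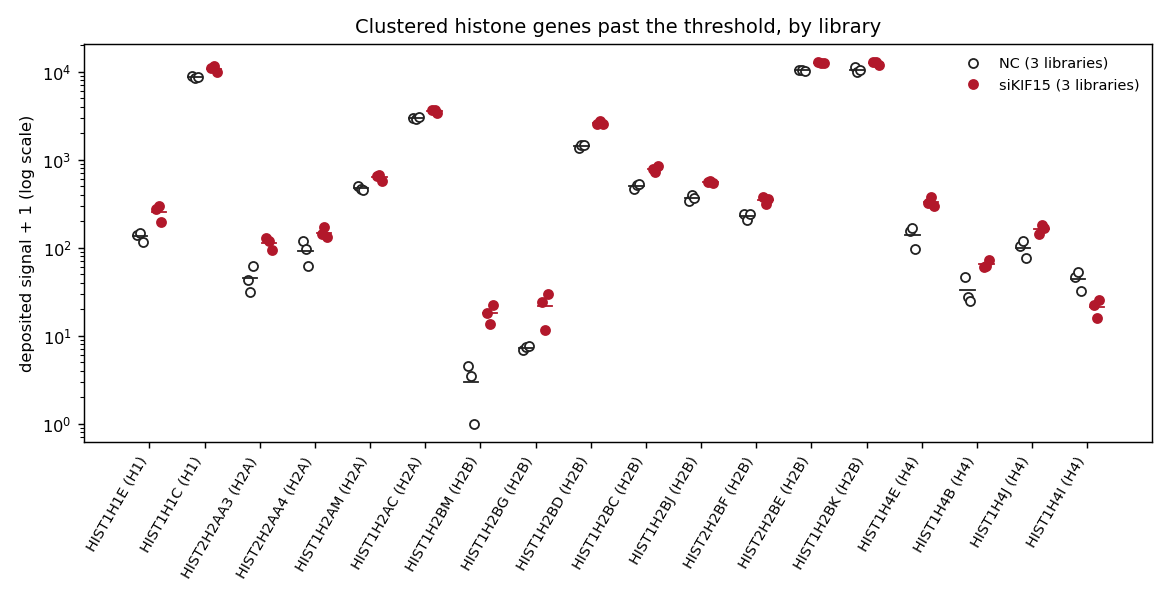
Signal + 1 (log axis) in each library for the 18 members past the threshold, ordered by histone type; open circles are the 3 NC libraries, filled circles the 3 siKIF15 libraries and short lines the group means. In 17 genes the filled circles lie above the open ones, and in HIST1H4I they lie below.

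Among the 16 H2A genes, 4 were called higher and none lower by limma, also none at an unadjusted p under 0.05, with a median log2 change of 0.29. After either correction HIST1H2AI was called lower. HIST2H2AA3 and HIST2H2AA4 have the same coding sequence, so reads could be split between them in ways the deposited values do not show. HIST2H2AA3 had 42.5, 30.8 and 61 in NC and 128.4, 118 and 93 in siKIF15 (2.53-fold, limma adjusted p of 0.0027), and HIST2H2AA4 had 117.3, 94.6 and 61.2 against 142.1, 169 and 132.2 (1.62-fold, limma adjusted p of 0.044). Added up, the pair measured 159.8, 125.4 and 122.1 in NC against 270.5, 286.9 and 225.2 in siKIF15, 1.92 times as much and without overlap. HIST2H2AA3 had an adjusted p of 0.0534 without siKIF15 replicate 1, and HIST2H2AA4 lost its call without NC replicate 2 (0.12), NC replicate 3 (0.21), siKIF15 replicate 1 (0.16) or siKIF15 replicate 2 (0.14), and after the transcript (0.2) and coding (0.13) corrections. HIST2H2AA3 was called higher after both.

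HIST1H2AC, whose longer polyadenylated form is well known, rose 1.21-fold from 3008.8, 2865.5 and 3019.8 to 3704.1, 3651.8 and 3390.2 (limma adjusted p of 0.015). HIST1H2AM rose 1.34-fold, from 497.4, 460.5 and 455.7 to 651.6, 663 and 577.9 (limma adjusted p of 0.016). In neither gene did the groups overlap. HIST1H2AC lost its call without NC replicate 1 (0.062), NC replicate 2 (0.089), NC replicate 3 (0.062) or siKIF15 replicate 1 (0.094), and after the coding correction, where its log2 change of 0.27 became 0.02 (0.87). HIST1H2AM lost it without NC replicate 2 (0.076), NC replicate 3 (0.079), siKIF15 replicate 1 (0.093) or siKIF15 replicate 2 (0.0509). After the transcript and coding corrections its log2 change of 0.42 became 0.05 (0.75) and 0.16 (0.22). HIST1H2AK missed the threshold narrowly, with 113.3, 129 and 123.2 in NC, 193.7, 171.3 and 162.1 in siKIF15 and a limma adjusted p of 0.0504. HIST3H2A, on chromosome 1, had 2500.2, 2401.7 and 2110.8 against 2614.7, 2855.9 and 2575.1. Its groups were apart but its log2 change of 0.2 did not pass (limma adjusted p of 0.11). HIST1H2AG, the gene with the variant stem-loop, overlapped between the groups (221.2, 315.2 and 232.9 against 278.8, 212.3 and 261).

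No H3 gene was called in either direction among 11, at a threshold that called 18.0% of all genes. H3 carries many of the regulatory marks of chromatin. At an unadjusted p under 0.05 limma put 1 lower, HIST1H3H, and 1 higher, HIST1H3I, and the latter was called higher in a fit without the variance trend. HIST1H3H, the H3 gene with the most signal, had 2390.4, 2451.7 and 2310.9 in NC and 2137.2, 2091.7 and 1979.8 in siKIF15. All siKIF15 values were lower (log2 change -0.2, 95% interval -0.36 to -0.05, limma adjusted p of 0.071), and the gene was called lower after both corrections, at -0.37 and -0.45. HIST1H3I was listed at 0 throughout NC, with siKIF15 values of 3.6, 4.2 and 1.1 (limma adjusted p of 0.12). It met the minimum through siKIF15 alone, so a rise was the only change it could show. For HIST1H3E, 368.3, 392.2 and 307.6 in NC overlapped 282.7, 255 and 322.7 in siKIF15 (limma adjusted p of 0.16). After the coding correction it was called lower, at -0.56 (0.015). The median log2 change of H3 genes was 0.08, and whether H3 genes differ from the other types was not tested.

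Of the 12 H4 genes, 3 were called higher (25.0%, against 9.66% of all genes). The 1 called lower is 8.33%, the same share as of all genes. The median log2 change of H4 genes was 0.29. H4 is among the most conserved proteins known. Its 12 genes have coding sequences of the same length, 309 bases, and 2 pairs of them are identical there. HIST1H4E had 152.5, 167.3 and 96.2 in NC against 317.5, 378.8 and 296.2 in siKIF15. Here the lowest siKIF15 value was well above the highest NC value, a rise of 2.39-fold (1.28 ± 0.2, limma adjusted p of 3.9e-04). HIST1H4B rose 2.01-fold from 46.1, 26.3 and 23.5 to 59.8, 61.7 and 71.1 (limma adjusted p of 0.025), but it was called in none of the fits without 1 library except that without NC replicate 1, with adjusted p between 0.0518 and 0.11 in the others. It was not called after the transcript (0.12) or coding (0.07) correction either. HIST1H4E was called after both. HIST1H4I had 45.4, 51.6 and 31.1 in NC and 21.5, 14.7 and 24.7 in siKIF15. It was 2.1-fold lower, without overlap (-1.04 ± 0.34, limma adjusted p of 0.044), and was still called lower after both corrections.

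HIST1H4J and HIST1H4K share a coding sequence, and the first alone was called. HIST1H4J rose 1.65-fold, from 103.5, 117.7 and 75.5 to 141.8, 180.5 and 167.1 (limma adjusted p of 0.024), and HIST1H4K had 11.8, 19.8 and 10.3 against 2.5, 8.3 and 7.2 (limma adjusted p of 0.14). Their sum was 115.4, 137.5 and 85.8 in NC and 144.3, 188.8 and 174.3 in siKIF15, 1.5 times as much and apart. HIST1H4J lost its call without NC replicate 1 (0.0538), NC replicate 3 (0.12), siKIF15 replicate 1 (0.072) or siKIF15 replicate 2 (0.084), and after the transcript (0.22) and coding (0.14) corrections. HIST2H4A and HIST2H4B, another pair with one coding sequence, summed to 77, 23.9 and 74.2 in NC and 74.9, 31.5 and 25 in siKIF15. NC replicate 2 stood low for that pair and the groups overlapped. HIST1H4H, known to have a polyadenylated form, had 614.5, 536.8 and 586.5 against 655, 597.5 and 716.9 and was not called (limma adjusted p of 0.31).

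Of the 5 linker histone genes, HIST1H1C and HIST1H1E were called higher. The median log2 change, 0.84, is that of HIST1H1D, a gene near the lower limit with 4.4, 0.2 and 2.8 in NC and 5.4, 4.2 and 3.1 in siKIF15 (0.84 ± 0.7, limma adjusted p of 0.46), and it was 0.53 after the transcript correction. HIST1H1E rose 1.9-fold from 140.3, 146.6 and 116.3 to 276, 296.3 and 195.3 (0.91 ± 0.19, limma adjusted p of 0.0036). HIST1H1C, which has the most signal of the H1 genes, rose 1.23-fold from 9014.2, 8469.6 and 8721 to 10906.9, 11646.7 and 9804.1 (0.3 ± 0.07, limma adjusted p of 0.01). In both genes siKIF15 replicate 3 was the lowest of its group and still above all NC libraries. The adjusted p of HIST1H1E was 0.059 without siKIF15 replicate 1. That of HIST1H1C was 0.08, 0.055 and 0.086 without NC replicate 2, NC replicate 3 and siKIF15 replicate 1, and its log2 change was -0.03 after the transcript correction and 0.15 after the coding one. HIST1H1T, the testis H1, had 4.2, 4.1 and 8.6 against 4.1, 15.6 and 18.5, with overlap (limma adjusted p of 0.31).

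At the limit of the minimum, HIST1H2BB (0.9, 1.2 and 0 in NC, 1.8, 1.1 and 1 in siKIF15) and HIST1H2AD (0.8, 1.3 and 1.9 against 0, 2.1 and 1) were just kept. HIST1H1A (0 in NC, 1.8, 0 and 0 in siKIF15) and HIST1H3C (0, 2.3 and 0 in NC, 0 in siKIF15) were just left out.

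Summed over its members, the signal of 4 types was higher in every siKIF15 library than in any NC library. For H2B, 24203 ± 658 (SD, n = 3) in the NC libraries compared with 30189 ± 613 in siKIF15, giving a ratio of 1.25. H1 went from 8894 ± 264 to 11078 ± 982 (1.25), H2A from 6876 ± 222 to 8197 ± 373 (1.19) and H4 from 1045 ± 97 to 1379 ± 37 (1.32). The H3 sum was lower in every siKIF15 library, at 3259 ± 146 against 2918 ± 54 (0.895). All members together made up 0.0891% of a library's summed signal in NC and 0.104% in siKIF15. These sums are not divided by length and rest on few genes: HIST1H2BK, HIST2H2BE and HIST1H1C held 66.9% of the members' signal, and HIST1H3H most of that of H3. After the transcript correction the ratios were 0.99 for H1, 1.05 for H2A, 1.08 for H2B, 1.16 for H4 and 0.793 for H3.

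**Figure D4:**
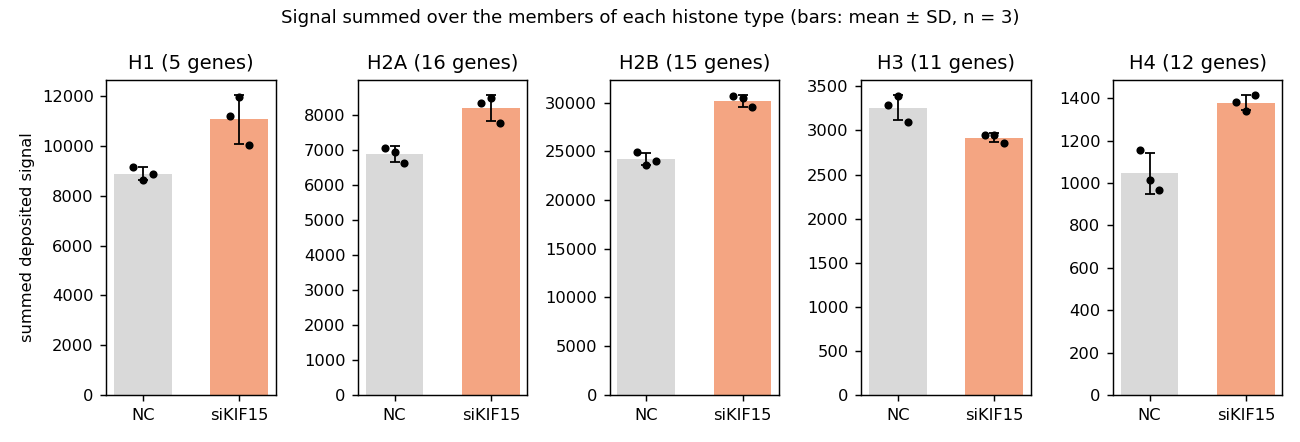
Signal summed over the members of each histone type, with bars for the group mean, error bars for the SD (n = 3) and points for the single libraries; each panel has its own axis, starting at 0. The siKIF15 points lie above the NC points for H1, H2A, H2B and H4 and below them for H3.

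By level, 5 of the 7 members with a mean signal of at least 1000 were called higher, 8 of 20 between 100 and 1000, 3 of 22 between 10 and 100 and 1 of 10 below 10. The share of all genes called in each of these classes was not taken. With the minimum raised to 10, 11.9% of all genes were called higher. The 8 members known from earlier work to make polyadenylated transcripts are HIST1H1C, HIST1H2AC, HIST1H2BC, HIST1H2BD, HIST1H2BJ, HIST1H2BK, HIST1H4H and HIST2H2BE. All but HIST1H4H were called higher, 7 of 8, where 9.66% of all genes, at any level, were. These 8 were not compared with genes of like level. The 7 became 5 after the transcript correction and 4 after the coding one, where 13.4% and 12.5% of all genes were called higher. They became 4 without NC replicate 2 (against 5.46% of all genes). Without NC replicate 3 or siKIF15 replicate 1 they became 3 (against 6.3% and 4.59% of all genes). Among the other 51, 10 were called higher and 1 lower. The medians of the log2 change were alike, at 0.29 and 0.33. The 8 genes held 80.3% of the members' signal in NC and 82.1% in siKIF15, and the difference between the counts was not tested. Of the 21 members with an annotated stem-loop 9 were called higher (42.9%), of the 26 with coding-only transcripts 4 (15.4%), and of the remaining 12 also 4 (33.3%), plus HIST1H4I lower. Of all genes 9.66% were called higher. This split depends on which bases were annotated, and differences between its classes were not tested.

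Position was described on GRCh38 with GENCODE coordinates. The HIST1 group lies on chromosome 6 in 3 blocks. In the first (26020490 to 26285638) 8 of 24 members were called higher, in the second (27125897 to 27147515) 2 of 5, with HIST1H4I lower, and in the third (27807444 to 27893843) 3 of 15. On chromosome 1, 4 of 11 HIST2 genes and none of 3 HIST3 genes were called higher, and the single HIST4 gene, HIST4H4 on chromosome 12, was not called. The shares called higher were 33.3%, 40.0% and 20.0% in the HIST1 blocks and 36.4% in HIST2. Of all members 28.8% were, and of all genes 9.66%. Differences between these places were not tested. The median log2 change was 0.34, 0.25 and 0.04 in the HIST1 blocks and 0.27 in HIST2. Neighbours moved unequally: HIST1H4I, called lower, lies in the same block as HIST1H2BJ and HIST1H2BK, both called higher.

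**Figure D5:**
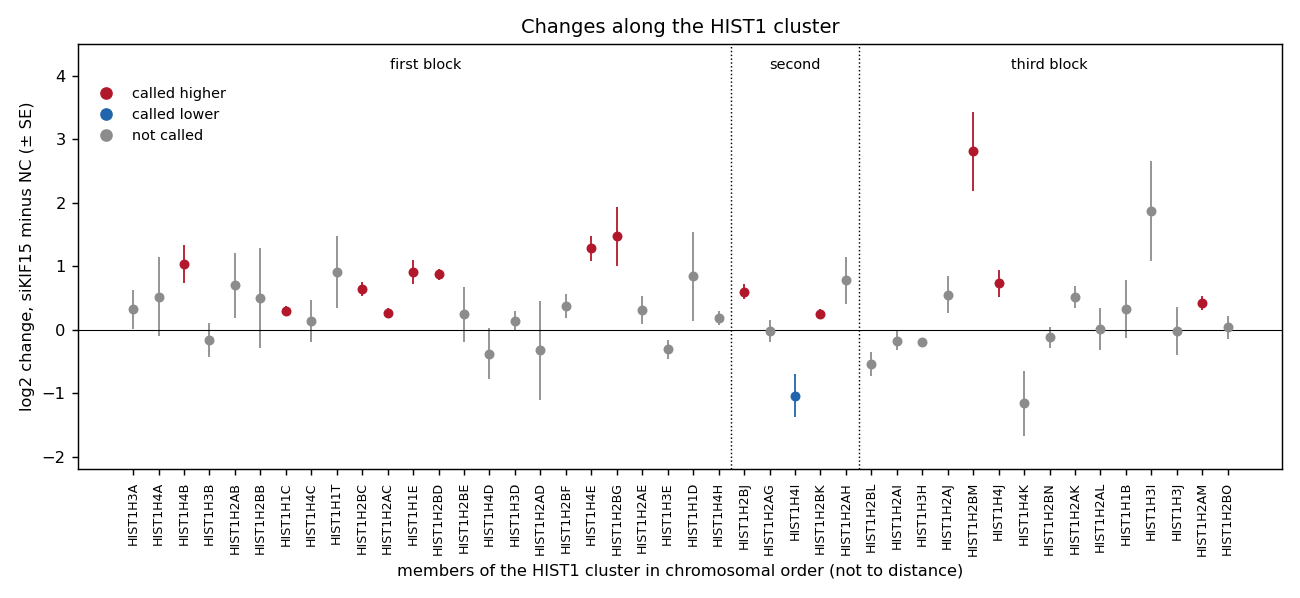
Log2 change (siKIF15 minus NC, bars are standard errors, 3 libraries a group) of the 44 HIST1 members in their order along chromosome 6, not to distance, with dotted lines between the 3 blocks. Red points (called higher) stand in each block beside grey points (not called), and the blue point, HIST1H4I, is in the second.

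H2A and H2B genes often lie head to head and share the DNA between them as a promoter. By GENCODE starts, with a limit of 500 bases, 10 such pairs were found among the members. Their starts were 219 to 331 bases apart. HIST1H2AK (log2 change 0.52) and HIST1H2BN (-0.12) were left out because their GENCODE bounds overlap. RefSeq's promoter windows place the starts of these genes head to head, so the counts below miss that pair. Of the 10 pairs, the H2B gene was called higher in 6 and the H2A gene in 2, and both were in 1 pair, HIST1H2AC with HIST1H2BC. Paired or not, 53.3% of H2B and 25.0% of H2A members were called higher, against 9.66% of all genes. Whether pairing matters was not tested. The signs agreed in 8 of the 10 pairs, where 13 of all 16 H2A and 13 of all 15 H2B members had positive changes. HIST1H2BJ rose beside HIST1H2AG, whose log2 change was -0.02, and HIST1H2BM (2.81) lies beside HIST1H2AJ (0.55, limma adjusted p of 0.22). In the pair of HIST1H2AM and HIST1H2BO the H2A gene was the one that rose.

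Genes that act with the clustered histones were described from 4 lists. The 12 replication-independent histone genes tested, whose mRNAs are mostly polyadenylated and not tied to S phase, had 3 called higher (25.0%, against 9.66% of all genes) and 1 lower (8.33%, the same as of all genes). H2AFY2, a macroH2A gene, rose 1.42-fold from 1294.5, 1347 and 1338.9 to 1925, 2016.3 and 1728.2 (limma adjusted p of 6.4e-04). H1F0, a linker histone linked to differentiation and growth arrest, rose 1.21-fold and H2AFZ, encoding H2A.Z, 1.19-fold, while H2AFV, encoding its close relative, was 1.18-fold lower. After the transcript and coding corrections the log2 change of H2AFZ was 0.08 in both and not called, and after the coding one H1F0 was not called either (0.13). Of the 6 fits without 1 library, H2AFZ lost its call in 5, H2AFV in 4 and H1F0 in 3. None of these 3 genes was called without the variance trend. In S phase, 9 of 18 genes were called higher by limma, where 9.66% of all genes were, and none lower, also none at an unadjusted p under 0.05, with a median log2 change of 0.22. They included the replication helicase genes MCM2 (0.34), MCM3 (0.29), MCM5 (0.36) and MCM7 (0.23), the helicase loaders and partners CDC6 (0.28), CDT1 (0.27), CDC45 (0.52) and GINS2 (0.52), and the thymidylate synthase gene TYMS (0.29). CDC45 measured 1384.1, 1561.1 and 1339.6 in NC and 2052.9, 2154.2 and 1919 in siKIF15, without overlap (limma adjusted p of 6.8e-04). Without NC replicate 1, 2 or 3, 5 S phase genes were called higher (27.8%, against 6.51%, 5.46% and 6.3% of all genes). Without siKIF15 replicates 1, 2 and 3 the number was 4, 7 and 11 (against 4.59%, 7.59% and 15.3%). It was 3 without the variance trend (16.7%, against 4.59%). After the transcript and coding corrections it was 10 and 14 (55.6% and 77.8%, against 13.4% and 12.5%). MCM7 and CDT1 each lost their call in 5 of the 6 fits without 1 library.

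The 25 genes for transcription, end processing and decay of histone mRNA had none called higher and 5 lower (20.0%, against 8.33% of all genes) by limma, or 1 and 7 at an unadjusted p under 0.05. They were LSM11 (log2 change -0.39), part of the U7 particle that cuts histone pre-mRNA, CPSF2 (-0.4), a subunit of the cleavage complex, POU2F1 (-0.46), the octamer factor, and ZCCHC11 (-0.39) and SMG1 (-0.77), which act in RNA tailing and decay. SMG1 fell from 3522.1, 3823.7 and 4123.9 to 2267.5, 1649.6 and 3001.6 (limma adjusted p of 0.0022). LSM11, POU2F1 and ZCCHC11 each lost their call in 5 of the 6 fits without 1 library, all but that without siKIF15 replicate 3, and CPSF2 (0.061) and SMG1 (0.058) without siKIF15 replicate 1. After the transcript correction the log2 changes of CPSF2 (-0.06) and POU2F1 (-0.15) were not called, and after the coding one that of ZCCHC11 (-0.14). SLBP (0.09, limma adjusted p of 0.46) and NPAT (-0.25, limma adjusted p of 0.3), an activator of clustered histone genes, were not called. Among 19 histone chaperone genes, ASF1B (0.32) and CHAF1B (0.3), which deposit H3 and H4 behind the replication fork, were called higher, and ATRX (-0.47) and ANP32E (-0.56), which act on the variants H3.3 and H2A.Z respectively, lower. The 2 chaperone genes called each way are 10.5% of the list, near the 9.66% and 8.33% of all genes. None was called higher without NC replicate 1, 2 or 3 or siKIF15 replicate 1. CHAF1B and ATRX each lost their call in 5 of the 6 fits without 1 library, and ASF1B in 4. ANP32E lost its call without siKIF15 replicate 1 (limma adjusted p of 0.055). ATRX was not called after either correction. Over the 4 lists 14 of 74 genes (18.9%) were called higher and 8 (10.8%, near the 8.33% of all genes) lower. The 14 became 6, 6, 7, 5 and 22 without NC replicates 1, 2 and 3 and siKIF15 replicates 1 and 3. These are 8.11%, 8.11%, 9.46%, 6.76% and 29.7% of the lists, against 6.51%, 5.46%, 6.3%, 4.59% and 15.3% of all genes in the same fits. The 8 became 3 without any 1 NC replicate (4.05%, against 4.37%, 2.84% and 4.1% of all genes without NC replicates 1, 2 and 3). Without siKIF15 replicates 1, 2 and 3 they became 0, 4 and 13 (0%, 5.41% and 17.6%, against 2.5%, 5.63% and 15.3% of all genes).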

How the data were processed

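RNA-seq values for 6 libraries of 1 cell line, 3 in each of 2 groups, were read from the deposited tables, 1 value per gene and library. The authors deposited a non-integer signal of 0 or more per gene, whose normalisation is not given in the sources used here. Whole reads could not be recovered from it, so no count test was used and no interval that needs depth is given. Bowtie 0.12.2 is named in the submitters' processing notes, which list mouse genome builds although the organism is human. The build, annotation and strand setting of the files are not given in the sources used here, and gene symbols were used as deposited.

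Genes reaching a mean of 1 in either group were tested with limma 3.58.1 (R 4.3.3, variance trend) on log2(signal + 1), a scale that understates changes of low genes, with no covariate. P-values were adjusted by Benjamini-Hochberg, with a threshold of 0.05. The fit was checked on simulated data. Named genes were every called member, the member with the most signal, largest rise and largest fall of each histone type, the members nearest the minimum, the polyadenylated list, called partner genes, SLBP, NPAT and KIF15. A few others were chosen after their values were seen: HIST1H2AK, HIST1H2AI, HIST1H2AG, HIST1H2AJ, HIST1H2BE, HIST1H2BN, HIST1H2BO, HIST1H1D, HIST3H2A, HIST2H4A, HIST2H4B and HIST4H4. Members and lists were chosen with earlier results of these data known. Positions and stem-loops came from GENCODE release 29 (GRCh38), promoters and current symbols from RefSeq (GRCh38.p14), where the first listed promoter was used for 4 members with several. Alternatives changed the pseudocount (0.1 and 5), the minimum (none and 10), the scaling, the variance model and a replicate block, corrected each library for GC content and length by splines with 5 degrees of freedom, and left out each library.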

Additional observations from a re-analysis of the deposited data

How the results depend on the processing

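Replicate numbers did not pair the libraries (correlations of same-numbered deviations of 0.0175, -0.021 and 0.0208). With the replicate number as a block, 17 members were called higher and 1 lower, as without it. Leaving out 1 library at a time gave 4 to 17 members higher and 0 to 2 lower, 767 to 2537 and 417 to 2540 of all genes, and 5 to 22 and 0 to 13 partner genes. The summed ratio then ran from 0.874 to 0.913 for H3 and from 1.27 to 1.39 for H4. Members called lower numbered 0 with a pseudocount of 0.1, with no minimum and without the variance trend, 2 with a minimum of 10 and with a robust trend, 3 with equal totals and 5 after either GC and length correction. Members called higher numbered 8 without the trend (3 of them not among the 17), 11 after the transcript correction and 8 after the coding one, which was added after the data were seen. Without the trend 760 genes were higher and 310 lower, with 4 and 0 partner genes. The transcript correction gave 2207 genes lower, and the coding one 25 partner genes higher. With equal totals, under which the median of all genes was -0.064, 1205 genes were called higher and 1753 lower, 9 partner genes were higher, and the summed ratios were 1.2 for H2B, 0.858 for H3, 1.27 for H4 and 1.16 for all members. After the transcript correction the ratios were 0.99, 1.05, 1.08, 0.793 and 1.16 for H1, H2A, H2B, H3 and H4 and 1.04 for all. After the coding correction they were 1.12, 1.0, 1.05, 0.756 and 1.11, and 1.04 for all. Log2 changes that turned sign were those of HIST1H1C (-0.03), HIST1H2BK (-0.13) and SLBP (-0.02) after the transcript correction, of HIST1H2BK (-0.01), HIST1H4H (-0.06) and KIF15 (0.09) after the coding one, and of HIST1H2AD, from -0.69 to 0.12 when 1 library was left out. The cause of these shifts was not tested. Over 52 named genes and 18 alternatives, 739 of 933 values kept direction and side of the threshold, 174 lost and 13 gained a call.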
